A study of Mus musculus with 51 samples.

Results

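Long intergenic noncoding RNAs (lincRNAs) are transcripts without a protein product that start away from the promoters of protein-coding genes, and their promoters were followed here through the first meiotic prophase of the mouse. A promoter was taken as the TSS window, the 500 bp on either side of the annotated 5′ end of a transcript. Windows were built for all transcripts of GENCODE M21 (mm10) on chromosomes 1 to 19, which gave 125891 distinct windows. Of these, 7171 windows belonged to 5209 genes annotated as lincRNA, and the 489 that overlapped a TSS window of a protein-coding transcript were set aside. The remaining 6682 windows of 4888 genes are the lincRNA promoters described below. The choice used the annotation and no measured value. Windows of the same gene often overlap, so they are not independent of each other.

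Each of the 20 lists holds ChIP-Seq peaks from nuclei of adult wild-type C57Bl/6J male mice, sorted by flow cytometry into 5 stages, which are, in order of progress, leptonema and zygonema, then early and late pachynema, and last diplonema. The gates used DNA content and the synaptonemal complex protein SCP3, with STRA8 for leptonema in a sort of its own, and with the testis-specific linker histone H1t and SCP1 for the other 4 stages. H3K4me3 was measured with a specific antibody (EpiCypher) in experiments 1 and 2 of every stage, which gave 10 lists. H3K4me2/3 was measured in experiment 2 with an antibody that binds H3K4me2 besides H3K4me3 (Abcam), and H3K9ac in experiment 1, with 1 list per stage each. Calls by the Abcam antibody are therefore not independent of the H3K4me3 lists. All animals were untreated and of the same genotype, and the groups were defined by stage. Leptonema also differs from the other stages in its sort, and the purity of the sorts was not analysed here. The lists held 516 to 30943 peaks, of which the H3K4me3 lists held 4883 to 15699. A list gives the ends of each peak but no score or read count, so the depth behind a call is unknown and a window was either called or not called. In such lists of sorted nuclei, fewer nuclei with a mark and less of the mark per nucleus cannot be told apart.

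H3K4me3 is laid down at the first nucleosomes of active and poised promoters, and promoters rich in CpG carry it in most cell types. In meiosis the methyltransferase PRDM9 places the same mark at recombination hotspots, away from most promoters, before double-strand breaks form. A peak at the 5′ end of a lincRNA can therefore be a promoter, or a hotspot that happens to lie there. From the pachytene stage on, spermatocytes switch on many germline transcripts, and the transcription factor A-MYB (MYBL1) is known as a main activator of that program, noncoding transcripts included. Testis is also the organ from which many lincRNAs were first cloned.

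Sequences that stand for the main patterns are printed first, as read from the GRCm38 (mm10) assembly, 5′ to 3′. The first is the promoter of 5031425E22Rik, the widest among those called at every stage (chr5:23433260-23433559, minus strand, 250 bases before to 49 after the 5′ end). It is shown for its CpG dinucleotides, which are in capitals and number 25.
5031425E22Rik: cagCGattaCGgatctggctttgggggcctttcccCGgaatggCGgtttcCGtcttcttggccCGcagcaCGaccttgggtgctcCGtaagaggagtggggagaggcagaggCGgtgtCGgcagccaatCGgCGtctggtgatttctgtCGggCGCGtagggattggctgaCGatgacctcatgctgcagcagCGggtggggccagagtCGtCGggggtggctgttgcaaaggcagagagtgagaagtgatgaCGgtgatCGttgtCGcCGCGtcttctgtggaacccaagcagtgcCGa
The next is the promoter of Gm32455 (chr14:84075241-84075540, minus strand), which gained H3K4me3 late. Capitals mark the word GGCAGTT or its reverse complement AACTGCC, a core bound by MYB proteins, and the promoter holds 8 CpG.
Gm32455: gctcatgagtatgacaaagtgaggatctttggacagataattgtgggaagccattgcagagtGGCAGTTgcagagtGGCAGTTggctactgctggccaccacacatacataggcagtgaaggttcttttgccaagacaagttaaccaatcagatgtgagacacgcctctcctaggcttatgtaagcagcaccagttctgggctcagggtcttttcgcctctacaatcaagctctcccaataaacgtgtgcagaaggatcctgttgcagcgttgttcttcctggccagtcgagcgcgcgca
The last is the central 200 bases of the zygonema-restricted site at the 5′ end of Gm9961 (chr16:11902179-11902378), on the plus strand of the reference. Capitals mark 8-base words that were frequent at the centres of such sites elsewhere.
Gm9961: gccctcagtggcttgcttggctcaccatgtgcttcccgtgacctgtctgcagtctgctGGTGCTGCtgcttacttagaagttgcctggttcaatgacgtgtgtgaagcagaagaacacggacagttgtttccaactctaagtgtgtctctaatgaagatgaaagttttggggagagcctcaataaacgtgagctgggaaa

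H3K4me3 was called at few lincRNA promoters. In the 10 lists together 748 of the 6682 windows had a peak at least once, which is 11.2% (exact 95% interval 10.4% to 12.0%) and covers 511 genes. The background over all TSS windows was 34.1%, and over the 52099 windows of protein-coding transcripts 48.0%. In leptonema 141 windows were called in experiment 1 and 280 in experiment 2. Zygonema had 173 and 175, and early pachynema had 161 and 100. Late pachynema had 142 and 297, and diplonema had 334 and 537. Diplonema was the highest stage within either experiment. The 2 experiments of a stage differed by 2 windows in zygonema, 155 in late pachynema and 203 in diplonema.

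**Figure D1:**
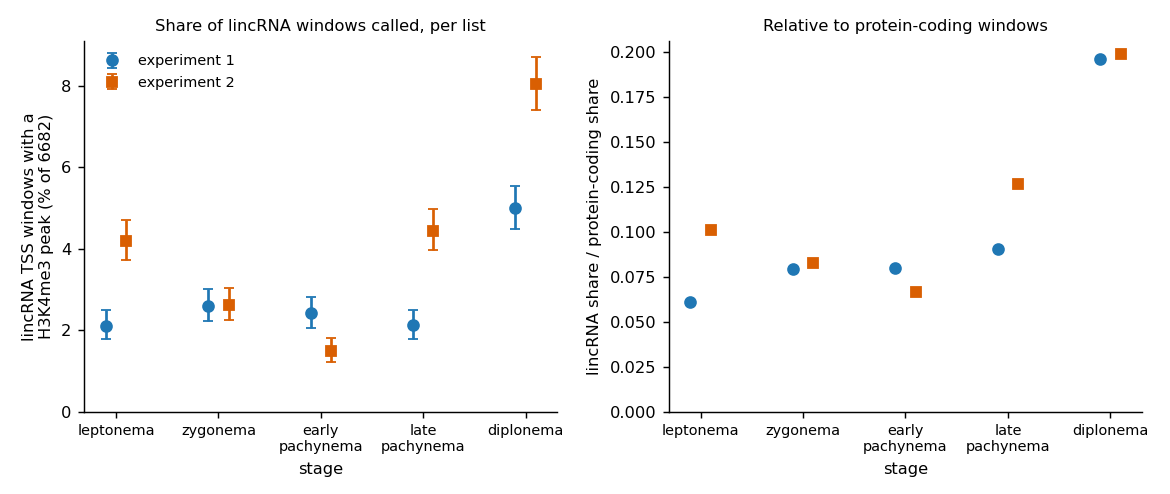
Share of the 6682 lincRNA TSS windows with a H3K4me3 peak in each of the 10 lists (left, % with exact 95% intervals that cover counting error over windows) and that share divided by the share of protein-coding windows (right), by stage; circles are experiment 1 and squares experiment 2. Both diplonema lists lie above the other 8 in each panel, at 5.00% and 8.04% on the left and at 0.196 and 0.199 on the right.

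As a share of all lincRNA windows, 6.52% ± 2.15 (SD, n = 2 lists) were called in diplonema. The other stages had 3.15% ± 1.47 (leptonema), 2.60% ± 0.0212 (zygonema), 1.95% ± 0.646 (early pachynema) and 3.28% ± 1.64 (late pachynema). The question for the stages was whether zygonema, or leptonema with zygonema, stood apart. Zygonema minus the mean of the other 4 stages was -1.12 percentage points (two-sided exact permutation test over the 10 lists, p = 0.667, adjusted p over the 4 main tests = 0.667). Leptonema and zygonema differed from the 3 later stages by -1.04 points (exact permutation p = 0.514, adjusted p = 0.667). Neither difference was larger than the spread between lists. Without diplonema of experiment 2 they were -0.507 and -0.218 points.

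The contrast of diplonema with the other 4 stages was chosen after the values were seen. It was 3.77 points, 6.52% against 2.75%, with an exact permutation p of 0.0444. That is the smallest p that 2 lists against 8 allow, and adjusted over 6 tests it was 0.133, so it does not pass 0.05. The difference was 2.25 points without diplonema of experiment 2 and 5.29 points without that of experiment 1. As the lists differ in length, the share was also set against that of protein-coding windows in the same list. In diplonema the ratio was 0.197 ± 0.00206 (SD, n = 2), that is 0.196 in experiment 1 and 0.199 in experiment 2. In the other 8 lists it ran from 0.0606 to 0.126. The difference was 0.112 (exact permutation p = 0.0444, adjusted over 6 tests 0.133). With every list trimmed to its 4883 widest peaks, the difference in share was 2.42 points and that in the ratio 0.115. The 2 main contrasts of this ratio were -0.0340 for zygonema (exact permutation p = 0.533) and -0.0453 for leptonema and zygonema (p = 0.190), both with an adjusted p of 0.667.

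The most frequent patterns over the 5 stages were those of late onset. Among the 748 windows, 114 were called in 1 diplonema list and nowhere else, 85 in both diplonema lists alone, and 85 in both diplonema lists and 1 late pachynema list. A further 78 windows were called in 1 leptonema list alone and 43 in 1 zygonema list alone. Windows called in all 10 lists numbered 37. Apart from the windows called in all 10 lists, these patterns by stage were counted in lincRNA windows only. In all, 242 windows rested on a call in a single list, or 3.62% of lincRNA windows. The background was 4.18% over all TSS windows and 5.32% over protein-coding windows.

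Windows gained by diplonema were defined as those called in both diplonema lists and in no leptonema or zygonema list. There were 230 of them, from 154 genes, or 3.44% of lincRNA windows (exact 95% interval 3.02% to 3.91%), against a background of 1.56% over all TSS windows and 1.82% of protein-coding windows. Without diplonema of experiment 1 the count was 370. Of the lincRNA windows called in both diplonema lists, 230 of 330 (69.7%) had this pattern. The corresponding share of protein-coding windows was 949 of 13247 (7.16%). Of the 230, 34 already had a peak in an early pachynema list and 145 in a late pachynema list, and 85 had none before diplonema. The call covered the 5′ end itself in 204 windows (88.7%), and the nearest peak centre lay at a median of 142 bp from it. Peaks were wide, with a median of 1330 bp in experiment 2 against 773 bp over that whole list, and 823.5 bp against 689 bp in experiment 1. Windows called in all 10 lists had 1166 bp and 622 bp in the same lists, in that order. The zygonema-restricted and leptonema windows described below also had medians above those of their lists.

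The gained promoters with the widest peaks were Gm49462, 4933411E06Rik, Gm5878, Gm32455, 4930578E11Rik and Mir142hg. At 4933411E06Rik no H3K4me3 peak was called in the 4 leptonema and zygonema lists. It had 284 bp in early pachynema in experiment 1 and none in experiment 2, then 187 and 1424 bp in late pachynema and 2228 and 2413 bp in diplonema. The H3K4me3 peak at its 5′ end was thus narrow or absent until late pachynema and broad in both diplonema lists. Gm32455 (chr14, 84075290) had its first H3K4me3 peak in late pachynema of experiment 2, at 1315 bp, and 1936 and 2723 bp in diplonema. 4930578E11Rik (chr18, 29496416 to 29496569) had 1277 bp in the same late pachynema list, then 1726 and 2634 bp. These 3 genes lie 368273 bp or more from the nearest protein-coding 5′ end. Gm49462 (chr2, 68568555) reached 4270 bp in late pachynema of experiment 2 and 4716 bp in diplonema of experiment 2, the widest of the 6. Mir142hg (chr11, 87755577), the host transcript of the blood-cell microRNA miR-142, had no H3K4me3 peak up to early pachynema, then 765 bp in late pachynema of experiment 2 and 1653 and 2451 bp in diplonema. H3K4me2/3 was called there at every stage, from 2128 to 3486 bp, and H3K9ac in early pachynema at 337 bp. The gene starts 4964 bp from a protein-coding 5′ end.

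**Figure D2:**
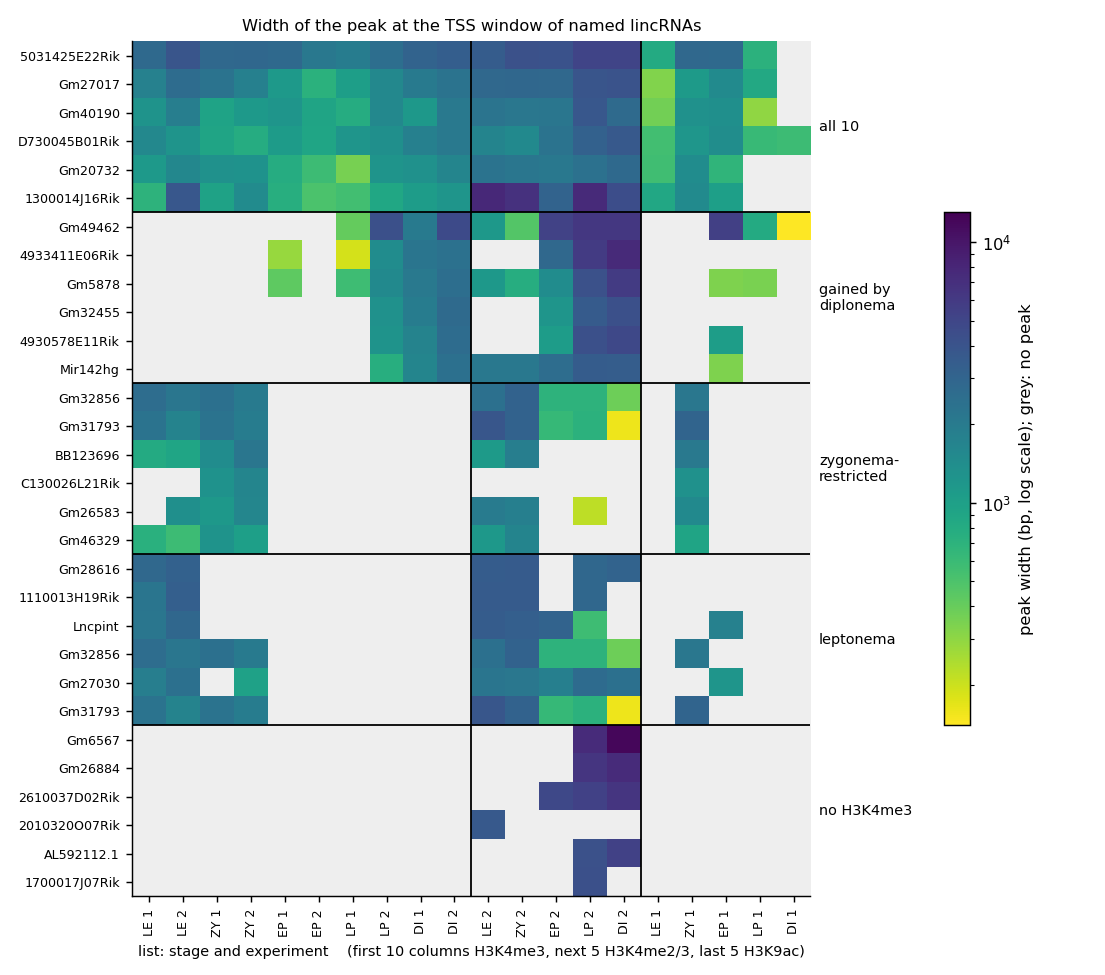
Width in bp (log colour scale, grey where no peak was called) of the widest peak at the TSS window of 6 lincRNAs per pattern (rows) in the 20 lists (columns; LE and ZY for leptonema and zygonema, EP and LP for early and late pachynema, DI for diplonema, with the experiment number). Rows gained by diplonema are grey in the 4 H3K4me3 columns of leptonema and zygonema by definition and reach 1653 to 4716 bp in the H3K4me3 columns of diplonema; Gm32856 and Gm31793 stand in both the zygonema-restricted and the leptonema rows.

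Many of the gained genes were named after testis clones. RIKEN clones of some number series, such as 4933411E06Rik, come mainly from testis libraries, and they name 536 of the 4888 lincRNA genes (11.0%). They named 67 of the 154 gained genes (43.5%), and of the 536 such genes 12.5% were gained by diplonema. Genes with a Gm number make up 69.7% of all lincRNAs and 45.5% of the gained set, with 70 genes. By comparison, testis clone names were carried by 3 of the 23 genes called in all 10 lists and by 1 of 22 at zygonema-restricted sites.

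The lists of the other antibodies did not enter the definition of the 230 windows. H3K4me2/3 was called at 72 in leptonema, 92 in zygonema, 157 in early pachynema and all 230 in both late pachynema and diplonema. That is 31.3%, 40%, 68.3%, 100% and 100%. Over all TSS windows the shares were 41.2%, 37.6%, 33.9%, 35.5% and 34.2%, so those of leptonema and zygonema were below or near the background. That antibody also binds H3K4me3, so the calls in diplonema follow from the choice of the windows. The shares in leptonema and zygonema follow from it in part, as windows with H3K4me3 in those stages were left out. In 120 windows there was no H3K4me2/3 peak in leptonema or zygonema, which the same choice favours. H3K9ac was called at 0, 25, 79, 35 and 25 of the 230 windows from leptonema to diplonema, and at 93 in at least 1 stage. By stage that is 0%, 10.9%, 34.3%, 15.2% and 10.9%, against 9.16%, 26.5%, 22.5%, 5.33% and 1.20% of all TSS windows. The 93 windows are 40.4%, against a background of 28.0%. The H3K9ac lists of late pachynema and diplonema are short, with 1727 and 516 peaks, so a missing call there says little.

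The sequence of the gained windows differed from that of the constant ones. Their GC content had a median of 48.8% and the observed over expected CpG ratio a median of 0.300 (quartiles 0.194 to 0.382). That is above the median of 0.226 of all lincRNA windows (quartiles 0.149 to 0.327). The 37 windows called in all 10 lists had medians of 59.1% and 0.799. The gained windows of protein-coding transcripts lay at 53.3% and 0.465. The MYB-type word GGCAGTT, searched on both strands after the sequences had been looked at, was present in 83 of the 230 gained lincRNA windows (36.1%), or in 58 of 154 genes. It was present in 12.7% of all lincRNA windows and in 11.7% of all 125891 TSS windows of the same length. Among gained protein-coding windows, which had no part in the choice of the word, it was present in 174 of 949 (18.3%), and in 10.7% of protein-coding windows called in all 10 lists. The word lay close upstream of the start: 48 gained windows (20.9%) held it in the 100 bp before the 5′ end and 19 (8.26%) in the 100 bp after it. Elsewhere in the gained windows the share per 100 bp ran from 0% to 4.78%, and in the other 6452 lincRNA windows from 0.930% to 1.57%. A match to the word is a description of these letters and not a binding site, and windows of the same gene can share it.

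**Figure D3:**
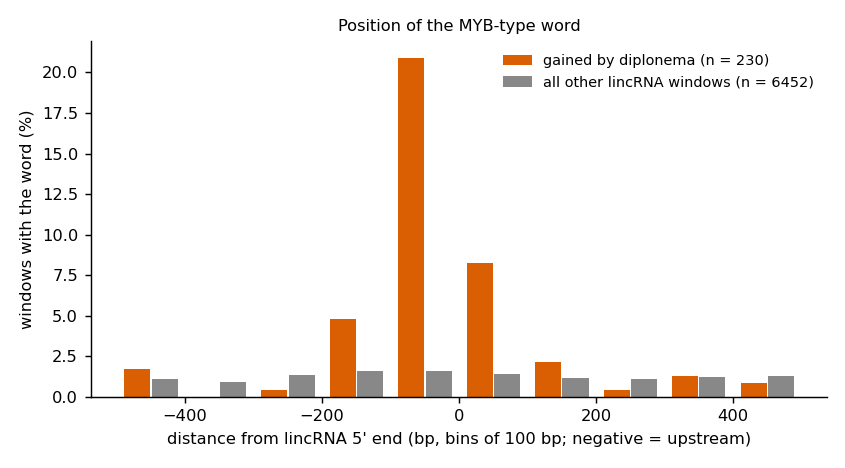
Share of lincRNA windows (%) that hold the MYB-type word on either strand, in bins of 100 bp by distance from the 5′ end on the gene's strand, for the 230 windows gained by diplonema and the 6452 others. In the bin just upstream of the 5′ end the share is 20.9% for gained windows and 1.57% for the others.

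The tandem copies are plain in the sequence of Gm32455 printed above, in which the word occurs in a repeat. Its CpG count of 8 stands beside 25 for the constant promoter of 5031425E22Rik over the same length.

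Windows called in all 10 lists were rare among lincRNAs, with 37 windows from 23 genes, or 0.554%. The background was 11.2% of all TSS windows and 16.1% of protein-coding windows. All 37 also had a H3K4me2/3 peak at every stage and a H3K9ac peak in zygonema and in early pachynema. The H3K4me3 peak covered the 5′ end in each of them. Their H3K4me2/3 calls follow largely from the choice of the windows, as that antibody also binds H3K4me3. In the order of peak width, the first 6 genes were 5031425E22Rik, Gm27017, Gm40190, D730045B01Rik, Gm20732 and 1300014J16Rik. 5031425E22Rik (chr5, 23433309 to 23433336) had peaks of 2739 and 3969 bp in leptonema, 2808 and 2867 bp in zygonema, 2766 and 2103 bp in early pachynema, 1946 and 2548 bp in late pachynema and 3054 and 3351 bp in diplonema. The course was flat, and the nearest protein-coding 5′ end lay 1105 bp away, so that a peak of this width may reach it. Gm27017 (chr14, 61648950) was 41468 bp from one and had 725 bp at the narrowest, in early pachynema of experiment 2, and 2614 bp at the widest. In 3 of the 37 windows every peak also touched a protein-coding window, and over the 748 windows this was the case for 19.

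Several lincRNAs of known function were in this constant group. Norad (2900097C17Rik), which binds PUMILIO proteins, had peaks of 298 to 1704 bp, narrowest in leptonema of experiment 1 and widest in diplonema of experiment 2. Cyrano (1700020I14Rik), which directs the decay of the microRNA miR-7, had 164 to 1337 bp. Snhg6, a host of small nucleolar RNAs, had 224 to 1383 bp, with the widest peak in zygonema of experiment 1. Epb41l4aos had 198 to 935 bp. In none of these 4 genes did both lists of a stage lie above all lists of the other stages.

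Zygonema-restricted sites were merged H3K4me3 sites with a peak in both zygonema lists and in none of the 6 later lists. They numbered 3500, of which 3125 lay outside all TSS windows. At lincRNA promoters there were 22 such sites (0.629% of the 3500), which touched 29 windows of 22 genes. That is 0.434% of lincRNA windows (exact 95% interval 0.291% to 0.623%), below the background of 0.575% over all TSS windows and the 0.566% of protein-coding windows. The share read differently among called promoters. Of the 113 lincRNA windows called in both zygonema lists, 26 (23.0%, interval 15.6% to 31.9%) lay at a zygonema-restricted site. For protein-coding windows it was 263 of 15200 (1.73%), and for all TSS windows 616 of 25540 (2.41%). As lincRNA windows were seldom called at zygonema (1.69% in both lists, against a background of 20.3%), a few sites made up a large share of the calls. The 29 windows became 51 without zygonema of experiment 1 and 75 without that of experiment 2, and in the latter case the share was 41.6%.

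Sites of this kind often lay beside the 5′ end. The nearest peak centre was at a median of 319.5 bp for the 29 windows, 142 bp for the gained and 95.5 bp for the constant ones, and 473.5 bp for those called in leptonema and in no later stage. The centre of the 22 merged sites lay at a median of 471 bp from the nearest lincRNA 5′ end, from 79 to 1164 bp. The zygonema peaks covered the 5′ end in 17 of the 29 windows (58.6%), where the corresponding figure was 88.7% for the gained, 100% for the constant and 79.3% for the leptonema windows. Around the 6682 5′ ends, 17 zygonema-restricted centres fell in the central bin of 1 kb, that is 2.54 per 1000 5′ ends. The bins from 2 to 10 kb on either side held 3 to 11 centres, with a mean of 1.14 per 1000, and the ratio of centre to surroundings was 2.23. For sites gained by diplonema the central bin held 204 centres or 30.5 per 1000, with 0.806 per 1000 around it, a ratio of 37.9. For sites called in all 10 lists it held 27 centres, a ratio of 3.71. As lincRNA windows that overlap a protein-coding TSS window were set aside, the central bin lacks most sites at protein-coding promoters. The outer bins keep them, which can lower the ratio, above all for sites called in all 10 lists. The central bin is as wide as the TSS window. These are descriptions with no test, and neighbouring 5′ ends can share a site.

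**Figure D4:**
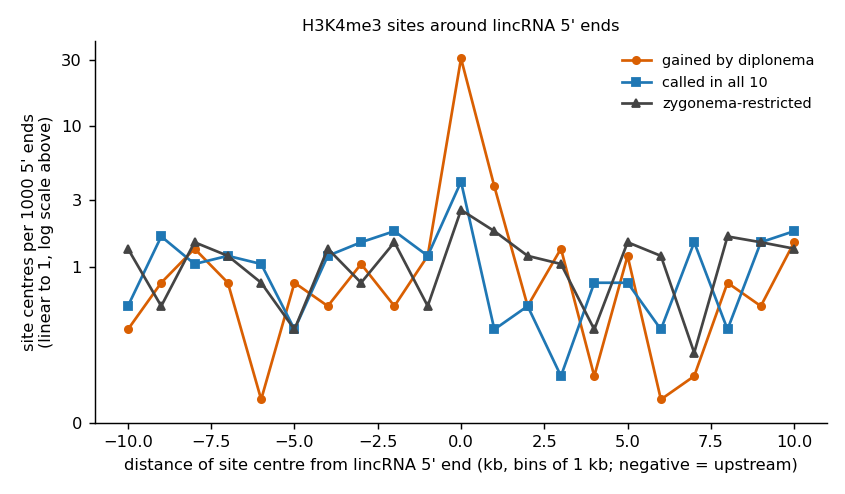
Centres of H3K4me3 sites per 1000 lincRNA 5′ ends in bins of 1 kb out to 10 kb (vertical axis linear to 1 and logarithmic above), for sites gained by diplonema, sites called in all 10 lists and zygonema-restricted sites. The central bin holds 30.5, 4.04 and 2.54 centres per 1000 in that order.

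The genes at zygonema-restricted sites with the widest peaks were Gm32856, Gm31793, BB123696, C130026L21Rik, Gm26583 and Gm46329. Gm32856 had 2559 and 2183 bp in leptonema and 2442 and 2043 bp in zygonema, and no H3K4me3 peak after that. H3K9ac at this gene was called in zygonema alone, at 2139 bp. H3K4me2/3 went on, from 2460 and 3141 bp in leptonema and zygonema to 694, 696 and 379 bp in the later stages. Gm31793 (chr10, 130542347) had the same course, with 2316, 1726, 2323 and 1932 bp and then none. At the 5′ end of C130026L21Rik at chr5, 111582431, H3K4me3 was called in zygonema at 1287 and 1657 bp and H3K9ac in zygonema at 1315 bp. The merged site also held a peak of 1 leptonema list outside the window, and other start sites of the gene had narrow H3K4me2/3 peaks of 186 to 425 bp from leptonema to late pachynema. Among named genes outside the 6, which are singled out after their values were seen, were Pinc, a pregnancy-induced transcript of mammary gland, and Dubr, which acts in muscle differentiation. Of the 22 sites, 15 had a peak in at least 1 leptonema list and 11 in both.

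H3K9ac was called in zygonema at 19 of the 22 sites, and H3K4me2/3 at all 22. By window, H3K9ac was called in zygonema at 23 of the 29 (79.3%), against a background of 26.5% over all TSS windows. It was also called in zygonema at all 37 windows with H3K4me3 in all 10 lists, so it is not particular to these sites. The H3K4me2/3 calls in zygonema follow largely from the choice of the sites, as that antibody also binds H3K4me3. The corresponding shares over all 3500 such sites are not given here. Of the 29 windows, 18 had H3K9ac in zygonema and in no later list, and 15 had H3K4me2/3 in zygonema and in no later list. The H3K9ac list held 16003 peaks in zygonema and 7744, 1727 and 516 in the later stages, so a missing later call says little. Missing later H3K4me2/3 calls follow in part from the choice of sites without later H3K4me3. These 2 counts were not made over all TSS windows. The CpG ratio of the 29 windows had a median of 0.230, as low as that of all lincRNA windows, whereas zygonema-restricted protein-coding windows had 0.668. At the 3125 sites outside TSS windows, the 8-base words most frequent in the central 200 bp relative to windows of the same length in the flanks were GATGCTAC, GCAGCACC, GCAGTAGC, GCTGCTAC and GATGCTGC, counted on both strands. At least 1 of them was present in 580 of those centres (18.6%) and in 342 of 12500 flanks (2.74%). The words were chosen from these same centres and flanks, so this difference follows from the choice. Of the 22 centres at lincRNA promoters 2 held one (9.09%), the one at Gm9961 printed above among them.

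Windows called in both leptonema lists and in none of the 6 lists from early pachynema on numbered 29, from 24 genes, or 0.434% against a background of 1.45% over all TSS windows. Of the 29, 11 were also at a zygonema-restricted site. Among the 6 with the widest peaks, Gm28616 (chr5, 132544435) had 2815 and 3210 bp in leptonema and no later H3K4me3 peak, 1110013H19Rik (chr15, 100613843) had 2244 and 3293 bp, and Gm27030 (chr8, 121654054) had 1876 and 2456 bp. These 3 start 1153 to 2612 bp from a protein-coding 5′ end. Gm27030 also had 966 bp of H3K4me3 in zygonema of experiment 2, and H3K4me2/3 at every stage, from 1846 to 2668 bp. In 3 of the 29 windows every H3K4me3 peak also touched a protein-coding window. Lncpint, a transcript induced by p53, had 2184 and 2876 bp at an internal 5′ end (chr6, 31218222), while peaks at its other start sites were called in later stages too. From leptonema to diplonema, H3K4me2/3 was called at 28, 26, 18, 19 and 11 of the 29 windows. That is 96.6%, 89.7%, 62.1%, 65.5% and 37.9%, against 41.2%, 37.6%, 33.9%, 35.5% and 34.2% of all TSS windows. The calls in leptonema follow largely from the choice of the windows, as that antibody also binds H3K4me3. Missing calls from early pachynema on follow from it in part. Genes that mark Sertoli cells were called in 3 of 4 cases in leptonema of experiment 2 and in none in experiment 1, and 1 or 2 of 4 spermatogonial genes were called in each. Without leptonema of experiment 1 the count was 120 windows. The part of other cell types in it was not tested.

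H3K4me2/3 was called far more widely. In at least 1 of its 5 lists 1600 lincRNA windows (23.9%) had a peak, against a background of 44.4% over all TSS windows, with 999, 813, 739, 1026 and 952 windows from leptonema to diplonema. H3K9ac was called at 412 windows (6.17%, background 28.0%), with 32, 317, 239, 68 and 31. With 1 list per stage these differences between stages have no replicate check. Windows called by either antibody but in no H3K4me3 list numbered 891, from 676 genes, or 13.3% of lincRNA windows. The background was 10.7% over all TSS windows and 12.6% over protein-coding windows, so the share is near that of protein-coding windows. Of the 891, H3K4me2/3 was called at 540 in leptonema and at 336 in zygonema, with 244 and 404 in early and late pachynema and 335 at the last stage. H3K9ac was called at 81 of them. Within this pattern, the calls by stage and antibody were counted in lincRNA windows only. The CpG ratio had a median of 0.350.

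The widest peaks of this kind were late. At Gm6567 (chr7, 73102068), 273441 bp from a protein-coding 5′ end, H3K4me2/3 was called over 7496 bp in late pachynema and 12097 bp in diplonema and in no earlier list. Gm26884 (chr15, 79692385) had 6517 and 7428 bp and AL592112.1 (chr17, 50236556) 4201 and 5445 bp in the same 2 stages. Gm26884 starts 1540 bp from a protein-coding 5′ end, so peaks of this width may reach it, whereas AL592112.1 starts 45882 bp from one. 1700017J07Rik had 4305 bp in late pachynema alone. 2010320O07Rik had 3674 bp in leptonema alone, and starts 1651 bp from a protein-coding 5′ end. At 2610037D02Rik the window without H3K4me3 (chr15, 96283608) had 4901, 5400 and 6452 bp from early pachynema to diplonema. It lies 3910 bp from a protein-coding 5′ end, so peaks of this width may reach that end. Another start site of the gene (96284495) carried H3K4me3 in 9 of 10 lists. None of the 6 had a H3K9ac peak at this window.

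Among lincRNAs of known name, 47 genes of a fixed list were members, and 18 of 37 single names in that list were not. Of the 47, 19 had a H3K4me3 peak in at least 1 list and 18 had no peak in any of the 20 lists. That is 40.4% and 38.3%, where over all 4888 lincRNA genes it was 10.5% and 76.5%, and over all TSS windows 34.1% and 55.2%. The shares over TSS windows are per window and the others per gene. A gene counted as called if any of its windows was, so genes with more windows are called more easily. Some named genes have many windows, such as Lncpint with 14 and Rmst with 13. The 18 Platr genes, transcripts first described in pluripotent cells, had no H3K4me3 peak. Of them 14 (77.8%) had no peak at all, a share near that of all lincRNA genes. All 3 Snhg members were called, Snhg6 in all 10 lists. Of the 7 microRNA hosts, 6 had a H3K4me3 peak and all 7 a H3K4me2/3 peak. Mir17hg (chr14, 115042879), the host of the miR-17-92 cluster, had 1774 and 2363 bp in leptonema, 1891 and 2357 bp in zygonema and 2076 bp in early pachynema of experiment 1. It had none in early pachynema of experiment 2, and in late pachynema and diplonema it had 2099 and 2549 bp in experiment 2 and none in experiment 1. The experiments thus differed more than the stages did. Mir9-3hg, a host known from neural tissue, was called in 9 lists, at 280 to 923 bp.

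Malat1, an abundant nuclear RNA of speckles, had 913 and 1385 bp in leptonema, 1098 and 1477 bp in zygonema and 986 bp in early pachynema of experiment 1. Later it had 289 bp in late pachynema of experiment 1 and 349 bp in diplonema of experiment 2, and none in the other 3 lists. Only in early pachynema of experiment 1 did a later peak fall within the range of the 4 early lists. H3K4me2/3 was called at Malat1 at every stage, from 1964 to 4873 bp. Neat1, its neighbour and the scaffold of paraspeckles, had no peak in any list. The imprinted transcripts of the Dlk1-Dio3 and Igf2 regions were barely called by H3K4me3. Meg3 had 144 bp in diplonema of experiment 2 and H19 had 404 bp in zygonema of experiment 1, and both had H3K4me2/3 in leptonema, at 3182 and 689 bp. Mirg, downstream of Meg3, had H3K4me2/3 in late pachynema and diplonema alone, at 3065 and 3113 bp. Hotair and Hottip, transcribed from HOX clusters, had no peak in any list, and Halr1, at the 3′ side of HOXA, had H3K4me2/3 in leptonema and zygonema at 1530 and 1509 bp. Pvt1, next to Myc, had 212 and 316 bp of H3K4me3 in late pachynema and diplonema of experiment 2 and H3K4me2/3 at every stage.

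**Figure D5:**
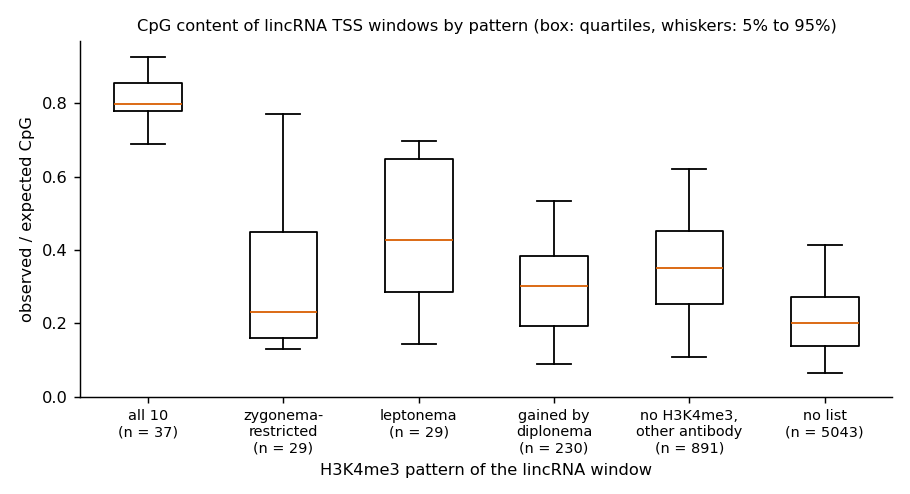
Observed over expected CpG of the lincRNA TSS windows by H3K4me3 pattern (vertical axis, no unit; boxes are quartiles with the median, whiskers 5% to 95% of windows, n under each box). The median is 0.799 for windows called in all 10 lists and 0.300 for those gained by diplonema, against 0.200 for the 5043 windows in no list.

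The 5043 windows in none of the 20 lists made up 75.5% of lincRNA promoters (background 55.2%). They belonged to 3924 genes, had a median CpG ratio of 0.200 and a median GC content of 45.5%, and lay at a median of 75.3 kb from a protein-coding 5′ end. Windows with a H3K4me3 peak lay at a median of 44.1 kb. Without a read count, absence from a list says that the mark was not called there, not that it was absent.

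The labels of the sorted nuclei were checked at marker genes. All 8 spermatocyte genes had a H3K4me3 peak in at least 1 list, and Stra8 had one in both leptonema lists and in no other. Hist1h1t, the gene of the H1t protein used in the later gates, was called in 1 leptonema and 1 zygonema list and in none after that. None of the 5 spermatid genes and neither macrophage gene had a peak in any of the 10 lists. Of 4 Sertoli genes, 3 were called in leptonema of experiment 2 and 1 in zygonema of experiment 2. Of 4 Leydig genes, 1 (Insl3) was called, in diplonema of experiment 2.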

How the data were processed

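ChIP-Seq peak lists of H3K4me3 (10), H3K4me2/3 (5) and H3K9ac (5) from 5 sorted stages were used, and the other 31 of the 51 samples were not analysed here. The authors used BWA mem (mm10) for alignment and MACS2 in broad mode for calling, per library, at a q-value of 0.1 and against stage-matched input (the submitters' processing notes give BWA 0.7.12, MACS2 2.1.2 and deepTools 3.0.1). This is stated for H3K4me3, and for H3K9ac only by a general software statement, with the control not given in the sources used here. The H3K9ac samples are titled so, although their antibody label names H3K4me3. The deposited columns are peak ends with no score, so the depth is unknown, and a deeper or purer library can give a longer list for that reason alone.

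Windows and overlaps (at least 1 bp) were computed in Python 3.11.15 (numpy 2.4.6, scipy 1.17.1), with sequences from GRCm38.p6 and figures from matplotlib 3.10.9. Stages were compared over lists by two-sided exact permutation tests, 4 main and 2 added after seeing the data, with Benjamini-Hochberg adjustment and a threshold of 0.05. The 2 experiments were taken as replicates, and whether they came from separate animals is not given in the sources used here, so that p-values measure the spread between these lists. Exact binomial intervals (95%) cover counting error over windows only. Named genes were a list of known names and, per pattern, up to 6 genes ordered by the mean width rank of their peaks, and some are left undescribed. The members, lists and rules were chosen with earlier results of these data known, and the MYB-type word and the site words after the sequences had been examined. The site words had to be present in at least 100 centres. Alternatives were a larger overlap, other windows, equal list sizes, the wider peaks of each list, stricter protein-coding filters, genes in place of windows, a wider merge distance, a laxer absence from later lists, leaving out each H3K4me3 list, and a replicate block. On simulated lists over the 6682 windows, 200 of 200 implanted windows of 4 patterns were recovered. Some sequences are not reported here.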

Additional observations from a re-analysis of the deposited data

How the results depend on the processing

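All 6 contrasts between stages kept their direction, and no adjusted p passed 0.05, under the alternatives that were run for them, which leave out the wider merge distance and the laxer absence, as these bear on restricted sites only. With equal list sizes the exact permutation p of the share of leptonema and zygonema against the later stages was 0.0286 (adjusted p over 4 tests 0.114). With a list left out, the smallest p possible for the diplonema contrasts is 0.0556, or 0.222 if it is a diplonema list, so that these fits say nothing of their stability. With a replicate block on the experiment (splits within each experiment), the exact permutation p was 0.64 and 0.5 for the shares and 0.56 and 0.2 for the ratios of the main contrasts, and 0.08 for both diplonema contrasts (3.77 points and 0.112). The deviations of the experiments correlated above 0.1 in 3 of 10 pairs of stages, those among leptonema, late pachynema and diplonema (0.114 to 0.461), and from -0.251 to 0.0690 in the others, so that pairing was not shown over all stages. No adjusted p passed 0.05 with or without the block.

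The counts of windows depended on the list and on peak width. Windows called in all 10 lists numbered 19 with an overlap of at least 250 bp, 11 with equal list sizes, 8 with the wider peaks of each list and 23 counted as genes. Zygonema-restricted windows numbered 12 with equal list sizes and 17 with the wider peaks, and 27 to 75 when a list was left out (51 without zygonema of experiment 1 and 75 without that of experiment 2). Their share among windows called at zygonema ran from 23.0% to 41.6% over the lists left out, with the highest value without zygonema of experiment 2. Windows of the leptonema pattern numbered 18 with the larger overlap, 16 with equal list sizes and 19 with the wider peaks, and 29 to 120 when a list was left out (120 without leptonema of experiment 1). Windows gained by diplonema numbered 153 as genes with all their windows combined, and 230 to 370 when a list was left out, with 370 without diplonema of experiment 1. They numbered 186 with equal list sizes and 161 with the wider peaks. The median share over the H3K4me2/3 lists was 14.2%, and 12.6%, 11.1%, 7.53% and 13.2% with the larger overlap, equal list sizes, the wider peaks and genes. For H3K9ac it was 1.02%, and 0.314%, 0.494% and 0.757% with equal list sizes, the wider peaks and genes. Fewer peaks entered the trimmed lists by construction, and the other causes were not tested. Depth limits all absences, since a list gives no count of reads.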

Other observations

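A pair of other words was counted in the lincRNA windows, on both strands and with no test. The full cAMP response element TGACGTCA was present in 41 of the 748 windows with a H3K4me3 peak (5.48%), in 7 of the 230 gained by diplonema (3.04%) and in 56 of the 5043 in no list (1.11%), against 2.46% of all TSS windows. The RFX-type word GTTGCCATG was present in 9 of the gained windows (3.91%), in 37 of the 891 windows called by the other antibodies alone (4.15%) and in 1.78% of windows in no list, against 1.38% of all TSS windows. Among protein-coding windows gained by diplonema these words were present in 1.90% and 3.37%.

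The lincRNA windows gained by diplonema lay on every chromosome from 1 to 19, from 3 windows each on chromosomes 12 and 19 to 32 on chromosome 5. Zygonema-restricted windows were most frequent on chromosome 16, with 7 of the 29, which belong to 3 genes. The 5′ end lay inside a protein-coding gene in 4 of the 230 gained windows (1.74%) and in 4.73% of all lincRNA windows.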
